A study of Mus musculus with 96 samples.

Results

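The genes described here are 10 dual-specificity phosphatase genes, Dusp1, Dusp2, Dusp3, Dusp4, Dusp5, Dusp6, Dusp7, Dusp8, Dusp10 and Dusp14, followed through the response of mouse embryonic fibroblasts to serum. They were chosen by name, as the entries of the deposited expression table that carry these gene symbols, and all 10 were found among the 15895 genes listed. No gene was left out for a low value.

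Dual-specificity phosphatases remove phosphate from both threonine and tyrosine, and many of them act on the activation loop of mitogen-activated protein kinases (MAPKs). Growth factors in serum activate the ERK kinases, and the JNK and p38 kinases respond to stress as well as to growth factors. Several Dusp genes are themselves transcribed in response to MAPK activity, so that their products form a negative feedback on the pathway that induced them. The products of Dusp1, Dusp2, Dusp4 and Dusp5 are inducible nuclear enzymes, those of Dusp6 and Dusp7 are cytoplasmic and act on ERK, those of Dusp8 and Dusp10 act on JNK and p38, and those of Dusp3 and Dusp14 are small atypical members without a MAPK-binding domain.

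Primary fibroblasts of CF-1 mice, prepared at embryonic day 13, were held for 36 h in 0.5% fetal calf serum and then received 20% serum at 0 h. PolyA RNA was sequenced from successive times in 2 time courses, Cycle 1 from -1 to 38 h (64 libraries) and Cycle 2 from -1 to 27 h (32 libraries), with 1 library at each time in a Cycle. The 12.5 h library of Cycle 1 was not analysed here, which leaves 63 in that Cycle. The labels give no genetic change or drug for any library, and the tests compare hours after serum with the starved cells of -1 h and 0 h. The 2 Cycles share 29 times after serum, from 1 to 27 h, and 4 starved libraries stand beside them. The number of embryos behind each culture was not given in the sources used here, and p-values therefore measure the spread between these libraries, which may be technical. The values are read counts over exons that the authors scaled to about the same total in each library, here called scaled read counts. Reads recovered on the listed genes numbered 4352235 to 12551892 per library (median 9375098), so that 1 read was worth 0.69 to 1.973 units and 3 reads, the level treated as the floor, 2.07 to 5.92 units. All 9 fibroblast markers examined, among them Col1a1 and Vim, were high in these cultures, at a summed level of 151464 to 519805, against at most 2180 for muscle, 620 for blood, 599 for epithelial, 385 for neural and 256 for endothelial markers.

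The starved cells were not uniform. Dusp1 stood at 365 in Cycle 1 and 439 in Cycle 2 at -1 h, and at 4029 and 3802 at 0 h, in libraries that the methods of the study place just ahead of serum addition. The difference of 3.29 ± 0.30 on the log2 scale (SE, n = 2 per time) passed limma's test, with a Benjamini-Hochberg adjusted p of 2.54e-09 over all genes. Dusp5 was the other member to pass, at 19.5 and 32.4 at -1 h against 131 and 70.9 at 0 h (1.90 ± 0.34, limma adjusted p = 0.00121). Dusp6 stood at 263 and 338 at -1 h and at 1050 and 766 at 0 h, but this difference of 1.59 ± 0.46 did not pass (limma adjusted p = 0.166). Dusp8, at 28.6 and 87.8 against 97.6 and 148, did not pass either (limma adjusted p = 0.25). By direction alone, with no threshold, 8 of the 10 genes were higher at 0 h than at -1 h in both Cycles. Dusp7 was lower in both, and Dusp3 was higher in Cycle 1 and lower in Cycle 2. The share of all genes with such a direction was not computed. By the test, with an adjusted p below 0.05 and a log2 difference above 1, 2 of the 10 members rose. By this rule 0.428% of all genes rose and 0.0755% fell between -1 and 0 h. Of 12 serum immediate early genes 10 rose as well, Fos by 4.89 and Egr1 by 3.22 on the log2 scale. This comparison was added after the values had been seen. Because the mean of the 4 starved libraries enters every log2 change of a window below, values against -1 h alone or 0 h alone are given wherever they alter a member's call in a window.

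**Figure D1:**
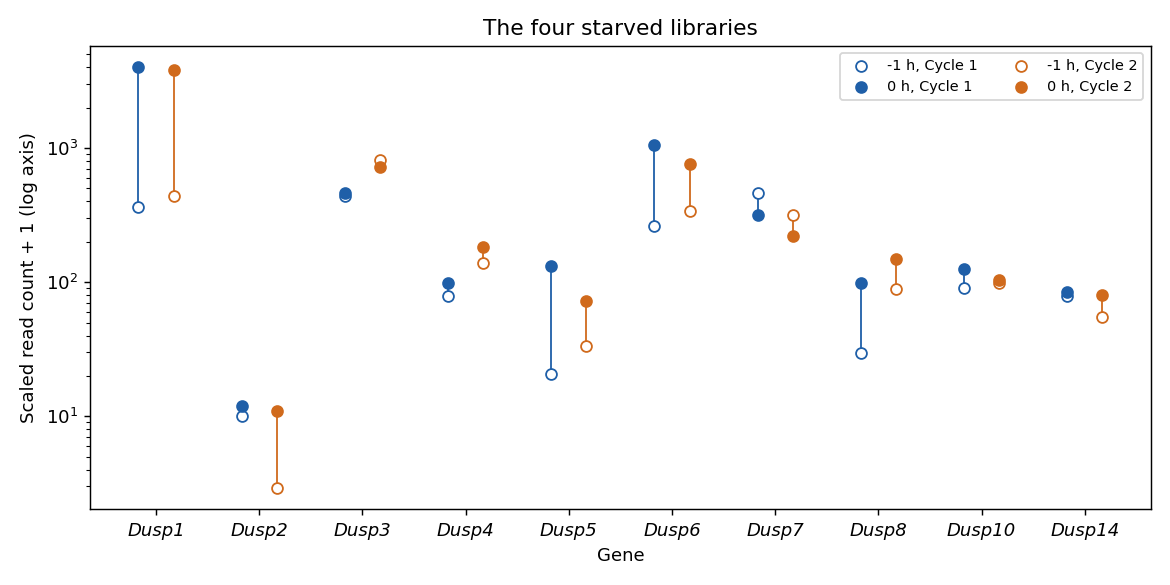
Scaled read count plus 1 (log axis) of each gene in the 4 starved libraries, with open circles for -1 h, filled circles for 0 h and a line joining the libraries of 1 Cycle. Dusp1 moved from 365 and 439 to 4029 and 3802, whereas Dusp4 and Dusp10 stayed below 200 in all 4 libraries.

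Serum-responsive promoters often hold short motifs, of which the cyclic AMP response element (CRE, TGACGTCA) is bound by CREB and ATF factors and the CArG box by serum response factor. RefSeq promoter windows of GRCm38.p6, from 250 bases before to 50 bases after the start site, were at hand for 9 of the 10 genes, Dusp4 being the exception. Each motif was searched on both strands. The CRE occurred in Dusp1, with its first base at -143 from the start site, and in Dusp8 at -107 and -63, and 1.79% of the 32851 windows in the table hold it. The CArG box was found in Dusp5 as an adjoining pair at -82 and -72, and 1.63% of windows hold this motif. The Egr motif (GCGNGGGCG) occurred in Dusp2 at -98 (5.55% of windows). The AP-1 motif (TGANTCA, 7.81% of windows) and the TATA motif (TATAAA, 13.62%) occurred in none of the 9. The stretches from -200 to -51 are printed for the 3 genes with a CRE or a CArG box. They were chosen because these genes, with Dusp6, had the 4 largest log2 differences in the family between -1 and 0 h. The window of Dusp6 holds neither motif, and the differences of Dusp6 and Dusp8 did not pass. A link between motif and difference was not tested. Capitals mark the CRE in Dusp1 and Dusp8 and the 2 CArG boxes in Dusp5, each read 5′ to 3′ on the gene's strand. A match in these letters is a description of the window only.
Dusp1, chr17:26508523-26508672, minus strand: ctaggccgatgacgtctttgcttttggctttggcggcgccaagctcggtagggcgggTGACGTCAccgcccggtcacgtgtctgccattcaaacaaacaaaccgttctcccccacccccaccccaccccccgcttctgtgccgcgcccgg
Dusp8, chr7:142095335-142095484, minus strand: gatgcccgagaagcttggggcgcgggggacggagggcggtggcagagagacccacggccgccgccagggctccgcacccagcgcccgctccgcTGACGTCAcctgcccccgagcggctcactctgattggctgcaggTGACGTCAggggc
Dusp5, chr19:53528945-53529094, plus strand: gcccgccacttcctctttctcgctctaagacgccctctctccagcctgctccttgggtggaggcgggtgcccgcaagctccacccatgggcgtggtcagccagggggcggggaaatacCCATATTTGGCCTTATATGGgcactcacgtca

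After serum most of the family differed from the starved libraries, with the most calls in the windows up to 3 h. By limma's F test over the 29 shared times 9 of the 10 genes were called changed. A call needed an adjusted p below 0.05 and, at some time, a difference from starvation larger than 1 in log2 units. Dusp3 was not called (adjusted p = 0.0681). This call is common in these data, since 52.5% of all genes received it. In the window of 1 to 1.5 h 7 of the 10 genes rose (Dusp1, Dusp2, Dusp4, Dusp5, Dusp6, Dusp10 and Dusp14) and none fell, against 3.45% of all genes that rose and 4.9% that fell. At 2 to 3 h 6 rose and Dusp8 fell (6.93% and 18.6% of all genes). At 4 to 6 h 5 rose (7.81%, with 19.6% of all genes falling and no member). Dusp2, Dusp4, Dusp5 and Dusp10 were still raised at 7 to 14 h (6.97%, with 16.7% falling). Dusp4, Dusp5 and Dusp10 were the 3 genes raised at 15 to 23 h (6.85%, with 17.6% falling) and at 24 to 27 h (6.42%, with 19.2% falling). The fit held the Cycle as a block, because the labels give the number as the time course. The median over all genes lay between -0.129 and -0.319 in the 6 windows. After rescaling by median ratios it lay between -0.09 and 0.02, and the members' window calls were the same apart from Dusp8 at 4 to 6 h, which was then called higher (1.15).

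**Figure D2:**
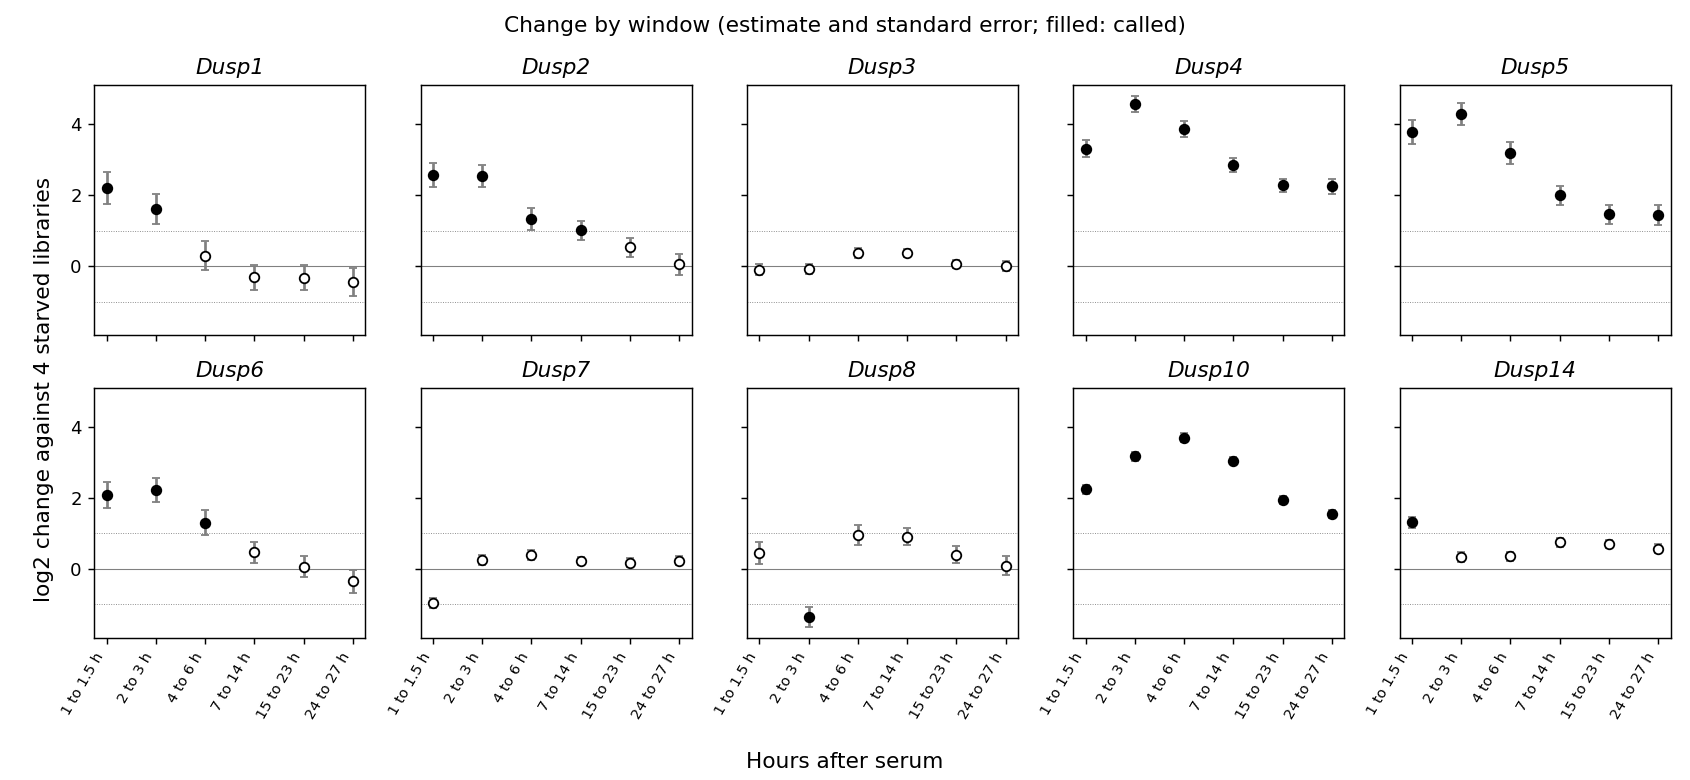
Log2 change of each gene in 6 windows of hours against the 4 starved libraries, with the estimate and standard error of the limma fit (2 Cycles); filled circles passed the adjusted p and the size threshold marked by dotted lines at 1 and -1. Dusp4 reached 4.56, Dusp5 4.28 and Dusp10 3.69, and Dusp8 was the single gene called lower in any window.

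Dusp1 encodes an immediate early nuclear phosphatase of JNK, p38 and ERK, and lies at chr17:26642535-26645464 of mm9 on the minus strand. It was at its highest at 1 h in both Cycles, at 8502 in Cycle 1 and 4500 in Cycle 2. At 1.5 h it stood at 7148 and 4144. The 1 h values were 23.3-fold and 10.3-fold those of the -1 h libraries but only 2.11-fold and 1.18-fold those of 0 h, so that in Cycle 2 most of the rise preceded the recorded addition of serum. By 3 h the values had come down to 2747 and 2486, and by 6 h to 1027 and 1303.

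Against the 4 starved libraries Dusp1 rose by 2.21 ± 0.45 on the log2 scale at 1 to 1.5 h (limma adjusted p = 0.000272) and by 1.62 ± 0.41 at 2 to 3 h (adjusted p = 0.00115). Against 0 h alone neither window was called (0.57 and -0.03). The later level of Dusp1 depended wholly on the starved library chosen. In Cycle 1 it lay between 790 and 908 at 15 to 23 h (median 842, 17 libraries), and in Cycle 2 between 1021 and 1334 (median 1207, 9 libraries). All of these lie above both -1 h values and below both 0 h values. The change at 15 to 23 h was accordingly 1.32 against -1 h (limma adjusted p = 1.19e-05), -1.97 against 0 h (adjusted p = 1.43e-08) and -0.33 ± 0.35 against all 4 (adjusted p = 0.426). The same reversal of sign held at 4 to 6 h (1.94 and -1.35), 7 to 14 h (1.33 and -1.96) and 24 to 27 h (1.19 and -2.10), each of them called.

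Dusp2, an inducible nuclear phosphatase best known from activated lymphocytes (chr2:127161895-127164112, plus strand), was the least abundant member. Its starved values were 9.02 and 10.9 in Cycle 1 and 1.91 and 9.89 in Cycle 2, of which 1.91 lies under the floor of 2.86 in that library. At 1 and 1.5 h it stood at 64.1 and 69.5 in Cycle 1 and 29.0 and 32.5 in Cycle 2, and every one of these exceeded all 4 starved values. The rise was 2.56 ± 0.34 at 1 to 1.5 h (limma adjusted p = 3.41e-07) and 2.54 ± 0.31 at 2 to 3 h (adjusted p = 1.42e-08). It was still 1.01 ± 0.27 at 7 to 14 h, where the call is lost with a pseudocount of 5 (0.70), without the -1 h library of Cycle 2 (0.64) and against 0 h alone (0.48). At 4 to 6 h (1.34 ± 0.31) the same 3 settings gave 0.96, 0.96 and 0.80, none of them called. At 15 to 23 h the change of 0.53 ± 0.26 was not called, but against -1 h alone it was 1.07 and passed.

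Dusp4, a nuclear phosphatase of ERK and JNK (chr8:35870351-35882948, plus strand), showed the largest window change of the family against the 4 starved libraries. Against -1 h alone Dusp5 changed more at 2 to 3 h, by 5.23 where Dusp4 changed by 4.74. Its starved values were 78.2 and 97.6 in Cycle 1 and 137 and 183 in Cycle 2. In Cycle 1 it went from 743 at 1 h to its highest value of 3390 at 1.5 h, and in Cycle 2 from 431 at 1 h through 1770 at 1.5 h to 2952 at 2 h. The increase was thus steepest after 1 h, when Dusp1 was already at or past its highest value. At 2 to 3 h the 6 libraries lay between 2428 and 2952, a rise of 4.56 ± 0.22 on the log2 scale or 23.6-fold (limma adjusted p = 1.12e-17).

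Dusp4 then fell slowly and was still raised at 24 to 27 h (2.24 ± 0.21). At 15 to 23 h it lay between 340 and 690 in Cycle 1 (median 561) and between 498 and 764 in Cycle 2 (median 620), all above the highest starved value. The change there was 2.28 ± 0.19 (limma adjusted p = 3.87e-12). It was more than 2-fold over the starved mean of its Cycle at all 29 shared times in Cycle 1 and at 28 of 29 in Cycle 2, the exception being 27 h.

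Dusp5, a nuclear phosphatase specific for ERK (chr19:53603599-53616921, plus strand), the promoter of which carries the CArG pair printed above, reached its highest value at 2 h in both Cycles, 1382 and 932. At 1 h it was at 705 and 345 and at 1.5 h at 1274 and 736, while all 4 starved values were at or below 131. The rise was 3.78 ± 0.33 at 1 to 1.5 h (limma adjusted p = 7.89e-11) and 4.28 ± 0.30 at 2 to 3 h (adjusted p = 8.98e-14). Measured from -1 h the highest values were 70.7-fold and 28.7-fold, the largest such ratio in the family in each Cycle. Dusp2 came close in Cycle 2 (28.6-fold), measured from its value under the floor.

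At 15 to 23 h Dusp5 lay between 116 and 178 in Cycle 1 and between 102 and 154 in Cycle 2, and these values overlap with the 0 h value of Cycle 1. The change of 1.46 ± 0.26 was called (limma adjusted p = 1.06e-05). Against 0 h alone it was 0.51 (adjusted p = 0.0619) and without the -1 h library of Cycle 1 it was 0.94, and neither passed. The same held at 24 to 27 h, where 1.45 ± 0.29 became 0.50 and 0.93.

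**Figure D3:**
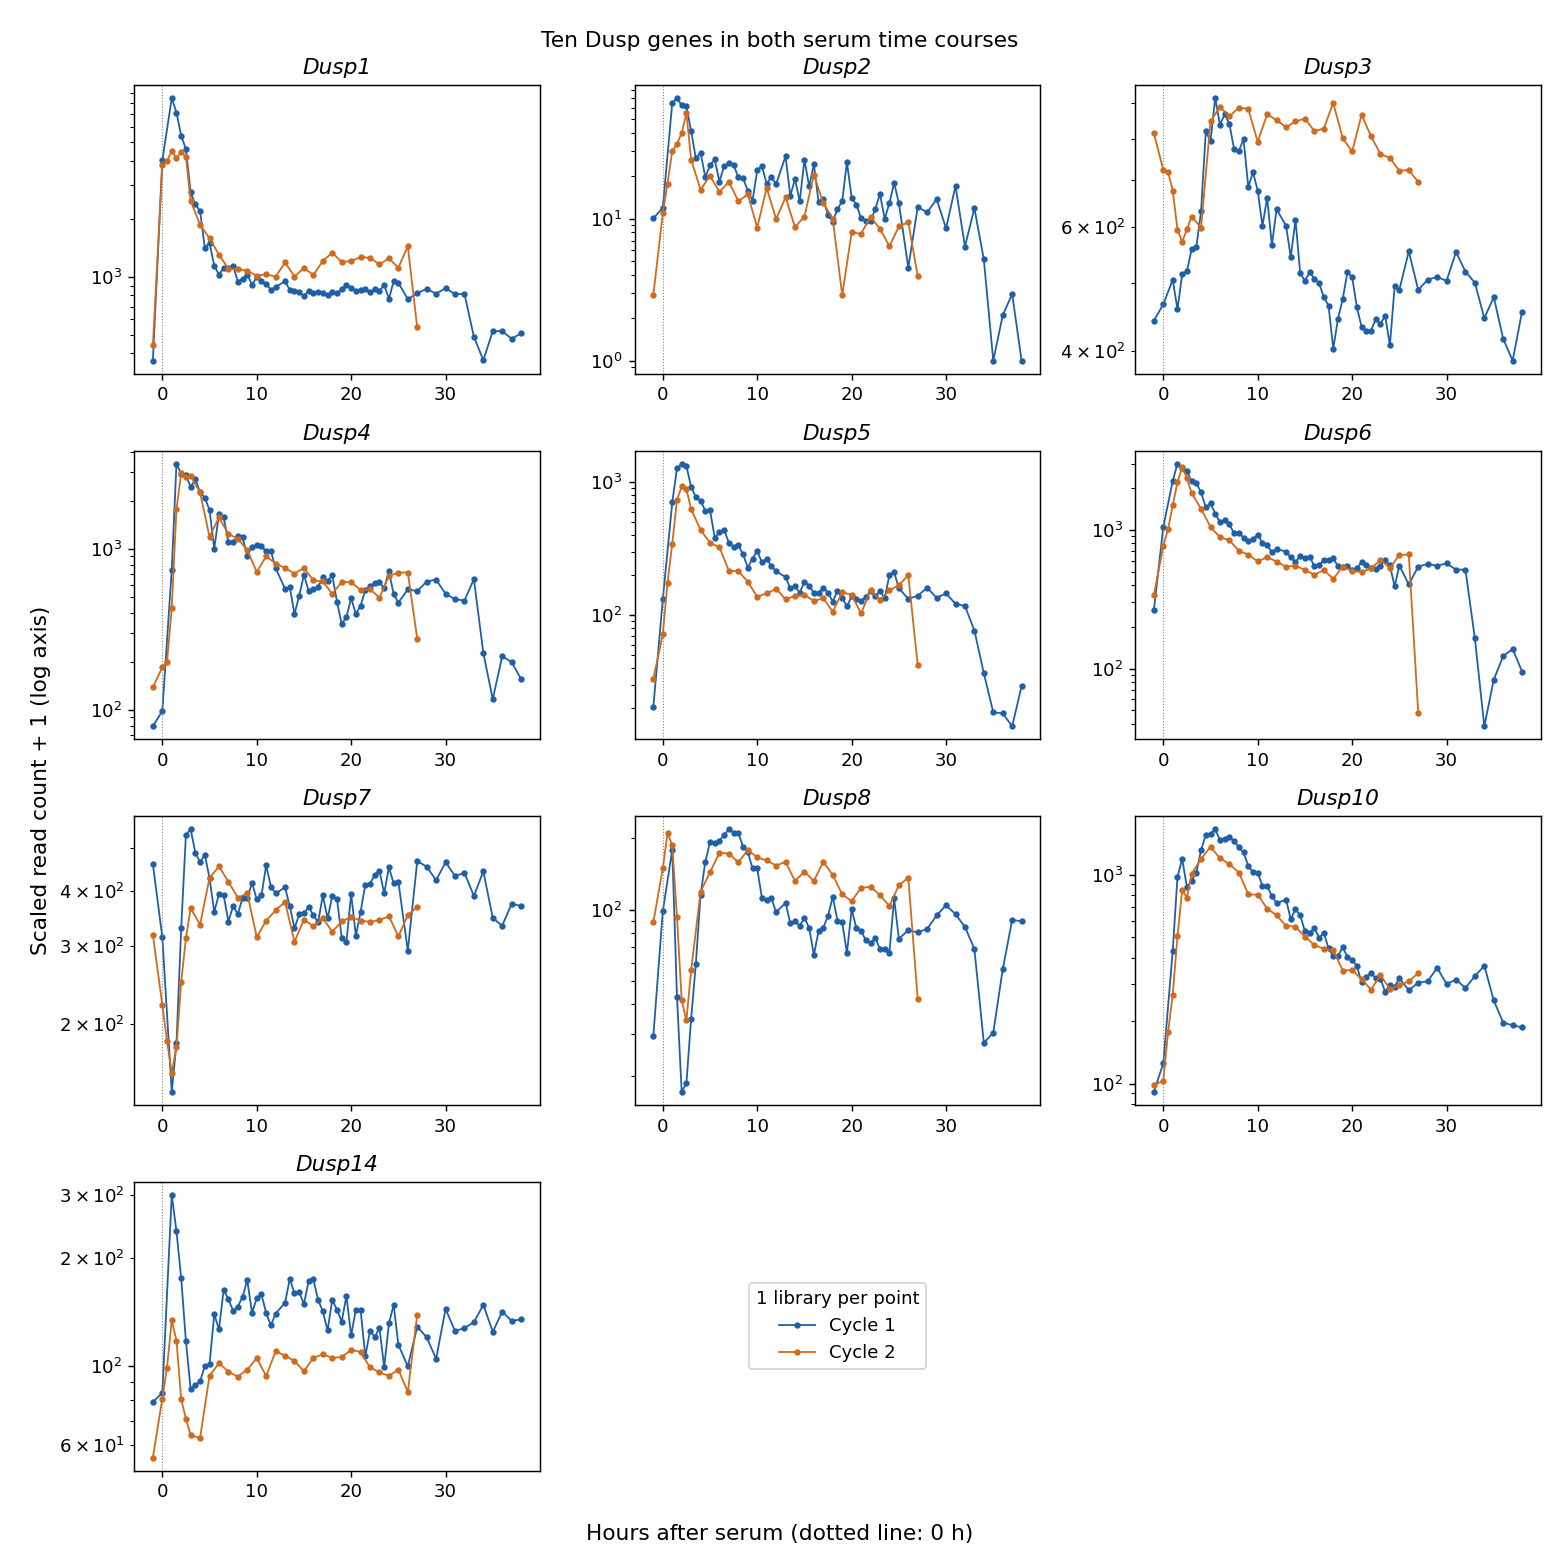
Scaled read count plus 1 (log axis, scaled separately for each gene) of the 10 genes against hours after serum, with 1 library per point, Cycle 1 in blue and Cycle 2 in orange. Dusp1 was highest at 1 h, Dusp5 at 2 h and Dusp10 at 5.5 h and 5 h, Dusp7 and Dusp8 passed through a minimum at 1 h and at 2 to 2.5 h, and Dusp6 fell steeply at the end of both Cycles.

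Dusp6 encodes the cytoplasmic ERK phosphatase that serves as a common readout of ERK signalling (chr10:98725865-98730122, plus strand). It rose from 263 and 338 at -1 h and 1050 and 766 at 0 h to 2252 and 1506 at 1 h, and was highest at 1.5 h in Cycle 1 (3002) and at 2 h in Cycle 2 (2828). The 4 libraries of 1 and 1.5 h and the 6 of 2 to 3 h all exceeded all 4 starved values. The rise was 2.07 ± 0.37 at 1 to 1.5 h (limma adjusted p = 5.02e-05), 2.23 ± 0.34 at 2 to 3 h (adjusted p = 9.97e-07) and 1.30 ± 0.34 at 4 to 6 h (adjusted p = 0.00137). The last was not called against 0 h alone (0.51) or without the -1 h library of Cycle 1 (0.92). From 15 to 23 h Dusp6 was nearly level, between 515 and 640 in Cycle 1 and between 443 and 605 in Cycle 2, and the change from the starved libraries was 0.06 ± 0.29. Against -1 h alone Dusp6 was also called higher at 7 to 14 h (1.26), and against 0 h alone it was called lower at 24 to 27 h (-1.14).

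Dusp7, the other cytoplasmic ERK phosphatase (chr9:106270963-106278055, plus strand), went down where Dusp6 went up. From 460 and 318 at -1 h and 314 and 220 at 0 h it came to its lowest values at 1 h, 139 and 154, and stood at 180 and 176 at 1.5 h. All 4 of these lie below all 4 starved values. The log2 change of -0.97 ± 0.15 had a limma adjusted p of 5.16e-06 but missed the size threshold of 1; against -1 h alone it was -1.24 and was called lower. Dusp7 was back at 551 and 365 by 3 h, and from 7 h on it stayed between 292 and 467 in Cycle 1 and between 306 and 419 in Cycle 2 over the shared times.

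Dusp8 and Dusp10 encode phosphatases of JNK and p38, and their time courses differed. Dusp8 (chr7:149265395-149281748, minus strand), the promoter of which holds the CRE pair, was high, then low, then high again. Its starved values were 28.6 and 97.6 in Cycle 1 and 87.8 and 148 in Cycle 2. At 1 h it stood at 177 and 186, and in Cycle 2, the only one sampled at 0.5 h, it had been at 210 at that time.

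Dusp8 then dropped to 16.1 at 2 h and 17.6 at 2.5 h in Cycle 1 and to 40.6 and 33.2 in Cycle 2, below both starved libraries of the same Cycle. Over 2 to 3 h it fell by 1.35 on the log2 scale (SE 0.28, limma adjusted p = 9.3e-05), a call lost against -1 h alone (-0.73, adjusted p = 0.0518). It recovered to 192 and 143 at 5 h. The 4 to 6 h change of 0.96 ± 0.28 and the 7 to 14 h change of 0.91 ± 0.24 were under the size threshold, and both passed against -1 h alone (1.58 and 1.53). Against -1 h alone Dusp8 was called higher at 1 to 1.5 h (1.07) and at 15 to 23 h (1.02) as well. In Cycle 1 it reached 217 at 7 h, above its value of 177 at 1 h, while in Cycle 2 no later value exceeded the 210 of 0.5 h.

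Dusp10 (chr1:185837181-185899515, plus strand) was late and sustained. Its 4 starved values lay between 90.2 and 124. It stood at 431 and 265 at 1 h, 1187 and 838 at 2 h, and 1563 and 1357 at 5 h, and was highest at 5.5 h in Cycle 1 (1645) and at 5 h in Cycle 2. The rise was 2.23 ± 0.13 at 1 to 1.5 h, 3.16 ± 0.12 at 2 to 3 h and 3.69 ± 0.12 at 4 to 6 h (limma adjusted p = 2.22e-22), the smallest standard errors in the family.

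Dusp10 was still at 3.04 ± 0.10 at 7 to 14 h and at 1.54 ± 0.11 at 24 to 27 h (limma adjusted p = 2.2e-13). It was more than 2-fold over the starved mean at all 29 shared times in both Cycles. From 24 to 26 h it lay between 278 and 318 in Cycle 1 and between 282 and 308 in Cycle 2, above every starved value.

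Among the atypical members, Dusp14 (chr11:83861543-83882763, minus strand) had a brief early rise. It stood at 299 and 133 at 1 h and at 236 and 117 at 1.5 h, against starved values of 78.2 and 83.0 in Cycle 1 and 54.4 and 79.9 in Cycle 2. The rise was 1.31 ± 0.15 (limma adjusted p = 2.15e-08). At 3 h it was back at 84.9 and 63.0, and from 15 to 23 h it lay between 105 and 173 in Cycle 1 and between 94.8 and 110 in Cycle 2. That later change of 0.71 ± 0.12 had an adjusted p of 3.77e-06 without reaching the size threshold.

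Dusp3 (chr11:101832457-101848327, minus strand), which encodes a small phosphatase with ERK and JNK among its substrates, was called in no window. In Cycle 1 it climbed from 440 and 465 in the starved libraries to 912 at 5.5 h and was back at 402 to 516 from 15 to 23 h. In Cycle 2 it began at 814 and 721, went down to 570 at 2 h and then stayed between 759 and 898 from 15 to 23 h. The largest window change was 0.37 ± 0.12 at 7 to 14 h (limma adjusted p = 0.00999).

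Levels between genes were compared per kilobase of exon, using the exon lengths of GENCODE vM1 (1945 to 4874 bases), in which no member shares exon bases with another gene. At -1 h in Cycle 1 Dusp7 (137 units per kilobase), Dusp1 (135), Dusp3 (96.7) and Dusp6 (94.1) stood above Dusp14 (40.2), Dusp10 (29.6), Dusp4 (28.5), Dusp5 (7.90), Dusp8 (5.86) and Dusp2 (4.50). At their highest values in that Cycle the order was Dusp1 (3152), Dusp4 (1237), Dusp6 (1074), Dusp5 (559) and Dusp10 (541), with the other 5 between 34.7 and 200. The orders differed in Cycle 2. There the -1 h levels began with Dusp3 (179), Dusp1 (163), Dusp6 (121) and Dusp7 (94.65). The highest values began with Dusp1 (1669), Dusp4 (1077), Dusp6 (1012), Dusp10 (446) and Dusp5 (377). Each of these levels is from 1 library. From 15 to 23 h Dusp1 stood at 312 ± 10.4 units per kilobase (SD, n = 17 times) in Cycle 1 and 443 ± 33.9 (n = 9) in Cycle 2, ahead of Dusp6 at 202 ± 14.1 and Dusp4 at 199 ± 39.6 in Cycle 1, which did not differ beyond their spread. In Cycle 2 Dusp4 stood at 219 ± 28.7 and Dusp6 at 183 ± 16.1. These SDs run over successive times of 1 Cycle and are not replicate errors.

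The response of no member was called different between the Cycles, in any of the 6 windows, by limma with the rule used above. In this test the successive times of a window, and the -1 and 0 h libraries, served as replicates within a Cycle. Its spread therefore holds change over time, and the lack of a call does not show that the Cycles were alike. The count over all genes was 17.8%. The widest gap in the first window was that of Dusp4, whose log2 rise in Cycle 2 less that in Cycle 1 was -1.71 ± 0.66 (limma adjusted p = 0.409). At 4 to 6 h this difference was -0.73 ± 0.18 for Dusp3, with an adjusted p of 0.00361 and a size under the threshold. Leaving out 1 starved library at a time gave between 0 and 3 differing members. Over the 29 shared times Dusp14 was higher in Cycle 1 at 28, and Dusp3 was higher in Cycle 2 at 28. The correlation between the 2 Cycles over these times, a description of profiles that share the sampling times, was 0.956 for Dusp10, 0.932 for Dusp1 and 0.919 for Dusp5, and 0.292 for Dusp3.

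The genes with profiles most like each member were sought among the 10485 genes with a mean of at least 50, by Pearson correlation of log2 values over the 95 libraries after centring each Cycle. The libraries are successive times that share 1 serum response, and the coefficients describe these profiles only. For Dusp1 they were Trib1 (0.951), Mcl1 (0.945) and Btg2 (0.938). For Dusp4 they were Eaf1 (0.973), Clcf1 (0.952) and Tmem2 (0.946), and for Dusp5 Hbegf (0.958), Errfi1 (0.952) and Arl4c (0.948). Dusp6 was closest to Spry2 (0.945), Errfi1 (0.938) and Myc (0.925), and Dusp10 to Tgfb1 (0.958), Nmnat2 (0.937) and Slc20a1 (0.934). Hbegf encodes a ligand of the epidermal growth factor receptor, and Errfi1 and Spry2 encode inhibitors of receptor tyrosine kinase signalling. For Dusp2 the leading genes were Egr2 (0.866), Arl4c (0.86) and Dusp5 (0.855). The leading coefficients were lower for Dusp3 (Stk38l, 0.846), Dusp8 (Tmem150b, 0.836) and Dusp7 (Zfp553, 0.813), and lowest for Dusp14 (Gadd45b, 0.659). Within the family Dusp5 and Dusp6 (0.913) and Dusp5 and Dusp4 (0.891) were closest, and Dusp1 and Dusp7 were furthest apart (-0.485).

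At the end of both time courses several members dropped abruptly. In Cycle 1 Dusp6 stood at 516 at 32 h, 164 at 33 h and 37.4 at 34 h. It stayed between 37.4 and 137 through 38 h, whereas from 25 to 29 h it had been between 403 and 567. In Cycle 2 it stood at 664 at 26 h and at 47.0 at 27 h, the last library. Both low values are below the -1 h values of 263 and 338.

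Dusp5 and Dusp4 fell as well, but not at the same hour in Cycle 1. At 33 h of that Cycle Dusp5 was down to 75.9, whereas Dusp4 was still at 648 and came to 225 at 34 h. Dusp5 stood between 132 and 160 from 25 to 29 h in Cycle 1 and between 13.6 and 35.7 from 34 to 38 h, and in Cycle 2 at 199 at 26 h and 41.1 at 27 h. Dusp4 lay between 464 and 645 in the earlier hours of Cycle 1 and between 116 and 225 in the later ones, and in Cycle 2 it stood at 714 and then 276. For Dusp2 the later hours held between 0 and 4.15, near or under the floor, against 3.52 to 12.7 earlier. In the means of log2 values, 4 of the 10 genes (Dusp2, Dusp4, Dusp5 and Dusp6) were lower by more than 1 at 34 to 38 h than at 25 to 29 h, as were 2.75% of all genes. Between 26 and 27 h of Cycle 2, 6 of the 10 were lower by more than 1 (these 4, Dusp1 and Dusp8), against 3.52% of all genes. Of these, Dusp2 stood at 8.41 and then 2.94, the latter at the floor of its library. Between the same hours of Cycle 1 none of the 10 was lower by more than 1. Dusp2 was higher there by 1.41, from a value of 3.52 under the floor of 5.28 to 11.0.

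For Dusp6 the log2 difference was -2.57 at 34 to 38 h (5.94-fold lower) and -3.79 at 27 h of Cycle 2 (13.9-fold lower). Dusp1 lay between 764 and 928 at 25 to 29 h and between 367 and 521 at 34 to 38 h, a log2 difference of -0.82, and in Cycle 2 it stood at 1440 and then 544. Dusp8 was at 26.6 at 34 h and 29.4 at 35 h but back at 89.6 at 37 h, within its earlier range of 74.6 to 93.7. Dusp3, Dusp7 and Dusp14 moved by less than 0.3 in Cycle 1. At 27 h of Cycle 2 Dusp14 was higher, at 138 against 83.4 at 26 h (0.72), while Dusp3 and Dusp7 differed from 26 h by -0.06 and 0.06. In Cycle 1 Dusp10 was at 365 at 34 h and between 185 and 195 from 36 to 38 h. Over all genes the median difference was 0.095 in Cycle 1 and 0.043 in Cycle 2, and these libraries held 4352235 to 10229788 and 8770972 reads. With 1 library per time these are values with no test, and the hours compared were chosen with earlier results known. They bear on the 24 to 27 h window, which holds the last library of Cycle 2: without it the change of Dusp6 was 0.06 in place of -0.35 and that of Dusp5 was 1.62 in place of 1.45, and no member's call changed.

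**Figure D4:**
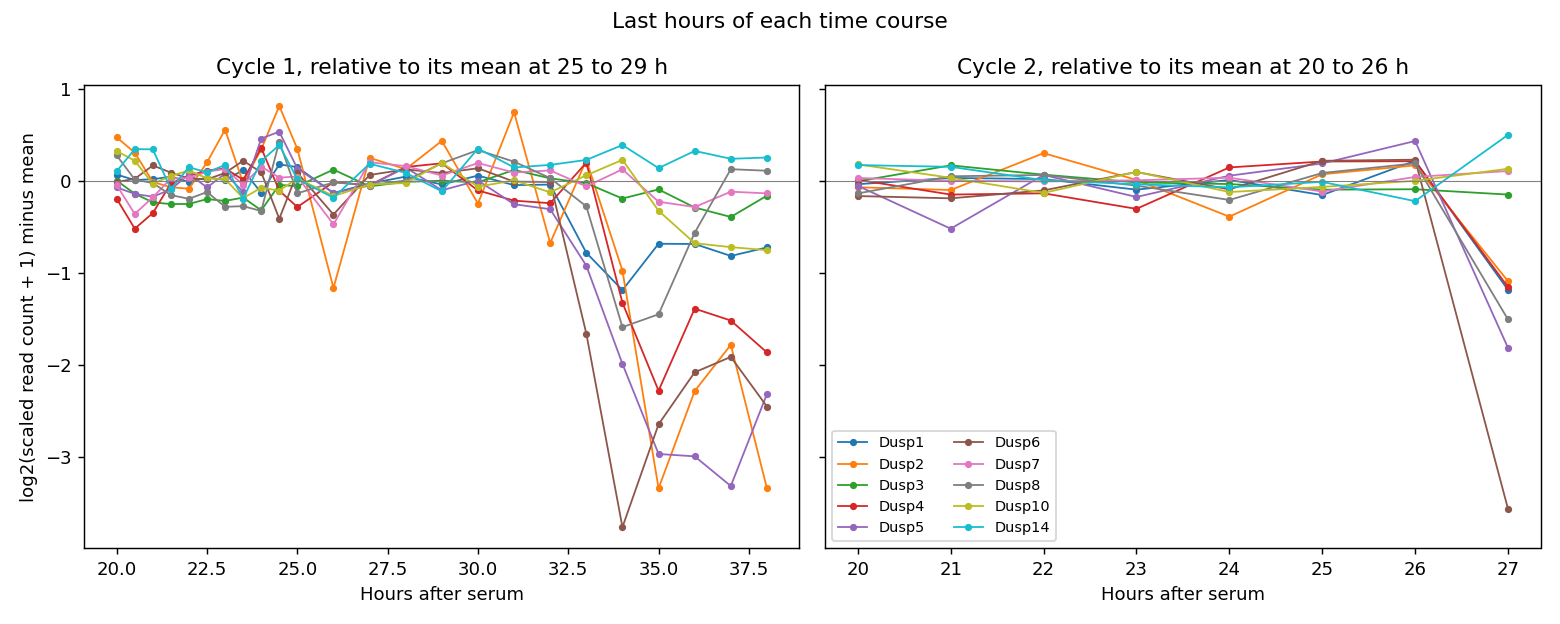
Log2(scaled read count + 1) of the 10 genes from 20 h on, less each gene's mean at 25 to 29 h in Cycle 1 (left) or at 20 to 26 h in Cycle 2 (right), with 1 library per point. In Cycle 1 Dusp6 and Dusp5 dropped after 32 h and Dusp4 and Dusp2 after 33 h, and all of these dropped at 27 h in Cycle 2. Dusp3 and Dusp7 showed no such drop, and Dusp14 was at its highest value of Cycle 2 at 27 h.

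Other genes of the pathway were taken from lists chosen with earlier results of these data known. Of 15 genes of the p38 and JNK cascades 5 were called by the F test, a smaller share than the 52.5% of all genes. Map2k3, a kinase that activates p38, rose by 2.41 ± 0.13 at 2 to 3 h (limma adjusted p = 1.43e-16), and Mapk13 rose by 1.57 ± 0.13 at 15 to 23 h. Mapk10 fell by 2.00 at 15 to 23 h, but its mean of 1.58 units lies under the level of 3 reads in every library.

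Of 8 genes known as transcriptional outputs of ERK other than Dusp genes, 4 rose at 1 to 1.5 h, 4 at 2 to 3 h and 5 at 4 to 6 h. Of all genes 3.45%, 6.93% and 7.81% rose in these windows. At 2 to 3 h and at 4 to 6 h 1 of the 8 fell (18.6% and 19.6% of all genes). At 4 to 6 h the list's median was 1.17 and that of all genes -0.255. Phlda1 rose by 3.22 ± 0.31 at 4 to 6 h and Etv4, an ETS factor, by 2.86 ± 0.29 at 24 to 27 h, while Epha4 fell by 2.65 ± 0.23 at 4 to 6 h. In the late hours 6 of the 8 were lower by more than 1 in Cycle 1 and 4 of the 8 at 27 h of Cycle 2. The list's medians were -1.47 and -1.05, and 2.75% and 3.52% of all genes were lower by more than 1. For Spry4, an inhibitor of receptor tyrosine kinase signalling, the log2 differences were -3.66 and -5.22. Among the 7 Sprouty and Spred genes, of which Spry2 and Spry4 are also in the ERK output list, 4 rose and 1 fell at 2 to 3 h. Of all genes 6.93% rose and 18.6% fell there, and the median was 1.12 for the list against -0.319 over all genes. Spry4 rose by 2.53 ± 0.40, Spred2 by 1.53 ± 0.25, and Spry3, with a mean of 14.3 units, fell by 1.52 ± 0.29.

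Of 12 serum immediate early genes 8 rose at 1 to 1.5 h (median 2.01, all genes -0.148), as did 3.45% of all genes. At 24 to 27 h 9 were lower than the 4 starved libraries, as were 19.2% of all genes. Fosl1 rose by 4.70 ± 0.37 at 2 to 3 h. Fos fell by 5.36 ± 0.61 at 24 to 27 h and Fosb fell by 4.76 ± 0.81 at 15 to 23 h, both measured from starved libraries that include the high 0 h values. In the late hours 9 of the 12 were lower by more than 1 in Cycle 1 and 8 in Cycle 2 (2.75% and 3.52% of all genes). Of 16 measured genes for other dual-specificity and MAPK phosphatases 1 rose at 2 to 3 h and 3 fell, shares near those of all genes (6.93% and 18.6%). Dusp9, a cytoplasmic ERK phosphatase of the same class as Dusp6 and Dusp7, rose by 3.54 ± 0.21 at 4 to 6 h (limma adjusted p = 9.39e-16). Ptprr fell by 3.67 ± 0.37 at 15 to 23 h and Dusp27 fell by 2.93 ± 0.52 at 2 to 3 h, both with means under 6 units, close to the level of 3 reads. In the late hours none of these 16 was lower by more than 1 in Cycle 1, and Dusp27 was in Cycle 2. Apart from edgeR, log2 changes and the folds computed from them are on the log2(value + 1) scale, which understates the change of low genes. Ratios to the -1 h value, the 0 h value or the starved mean of a Cycle were taken on values without the added 1.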

How the data were processed

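PolyA RNA of 96 libraries was prepared with a stranded kit and sequenced as single-end 50-base reads. Per the labels and methods, the authors used CASAVA, STAR alignment to mm9 and HOMER counting over exons on both strands, and deposited a normalized signal per gene, scaled so that library sums lie between 8420657 and 8916718. Versions are not given in the sources used here. Of 96 columns, 1 matched no library title and was not used, so that 95 libraries were analysed and 12.5 h of Cycle 1 was not. Reads were recovered from the value that 1 read takes in each library, 94.2% to 96.2% of values up to 20 reads being whole within 0.1 of a read. Floors of 3 reads cover counting error only.

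Values were tested as log2(value + 1) with limma 3.58.1 in R 4.3.3 on 62 libraries (29 shared times and -1 and 0 h of both Cycles), each time as a group and the Cycle as a block, by an F test, by contrasts of 6 windows of hours with the 4 starved libraries and by a window-by-Cycle test. A call required a Benjamini-Hochberg adjusted p under 0.05 over all 15895 genes and a log2 change above 1 in size. The pairing by Cycle follows the labels, which give the number as the time course. Deviations of the libraries of a Cycle from the mean of both Cycles correlated across genes by a median of 0.303 over 406 pairs of shared times (394 above 0.1). Alternatives covered the block, pseudocount, a mean of at least 10, scaling, limma's trend and robust options, edgeR 4.0.16 on recovered reads, the size threshold and leaving out libraries. Fits were tested on simulated data. Tables and figures used Python 3.11.15, numpy 2.4.6, pandas 2.3.3 and matplotlib 3.10.9.

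The members and lists were chosen with earlier results of these data known. The text names all 10 members, per list up to 3 genes with the largest called window change, per member the 3 (or the 1 leading) most correlated genes, and Egr1, named after its values were seen. A further list is not reported here. The comparison of 0 h with -1 h, the single-time baselines and the late hours were also chosen after values were seen. Gene positions are those of NCBIM37 (mm9, GENCODE vM1) and promoter positions those of GRCm38.p6 (RefSeq), and neither was converted. Hours sampled in Cycle 1 only were left out of the tests.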

Additional observations from a re-analysis of the deposited data

Results flagged for a closer look

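Dusp3 responded in opposite directions in the Cycles at 2 to 3 h: every library of Cycle 1 lay above both of its starved libraries (440 and 465) and every library of Cycle 2 below both of its own (814 and 721). The difference of the response, Cycle 2 minus Cycle 1, was -0.589 on the log2 scale, with a limma adjusted p of 0.0269 and a size under the threshold of 1.

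In the 4 starved libraries of Dusp14 the lowest value (54.4, at -1 h of Cycle 2) stood apart from the other three (78.2 to 83.0), with a gap of 0.832 of the whole range, just over Dixon's critical value for 4 samples. This was the single such value among the 10 members. The critical value corresponds to about 1 in 20 for 1 group of 4 like values. Here 10 groups were checked, each of libraries from 2 Cycles and 2 times, so that 1 such value can arise by chance.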

How the results depend on the processing

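The count of members called was 9 over the shared times and 7, 7, 5, 4, 3 and 3 in the 6 windows from early to late. Without the replicate block these counts were 8, 7, 7, 5, 4, 3 and 3, and every member's window call kept its direction and its side of the threshold. With no size threshold they were 9 at 4 to 6 h and 7 at 7 to 14 h, where 61.4% and 62.67% of all genes were called. Against -1 h alone, a setting chosen after seeing the data, they were 7 at 7 to 14 h and 6 at 15 to 23 h (22.96% and 23.58% of all genes). Leaving out 1 Cycle or 1 starved library gave 0 to 9 members over the shared times, 0 to 8 at 1 to 1.5 h, 3 to 7 at 2 to 3 h, 2 to 6 at 4 to 6 h, 2 to 5 at 7 to 14 h, 2 to 3 at 15 to 23 h and 2 to 3 at 24 to 27 h. The lowest counts are those with a Cycle left out, where each time has 1 library and the F test calls 0 of all 15895 genes. The 0 members that differed between the Cycles became 1 with no size threshold and 0 to 3 without a starved library, the 3 arising without 0 h of Cycle 1. The log2 change of Dusp1 reversed against 0 h alone at 2 to 3 h (-0.028) and 4 to 6 h (-1.351), and against -1 h alone at 7 to 14 h (1.328), 15 to 23 h (1.316) and 24 to 27 h (1.188). Its difference between the Cycles at 7 to 14 h (0.06) ran from -1.669 without 0 h of Cycle 1 to 1.791 without -1 h of Cycle 1. By edgeR Dusp1 was also called lower from 7 h on (-1.02 to -1.13). Under a running median over 3 libraries 10 of the 20 highest times did not move, 8 moved by up to 1 h, and in Cycle 2 that of Dusp14 moved from 27 to 1 h and that of Dusp3 from 18 to 7 h. Dusp2 is limited by depth, since 3 reads amount to 2.07 to 5.92 units.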
